A study of Mus musculus with 4 samples.

Results

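The NRF2 antioxidant response genes are followed here in the open chromatin of wild-type mouse macrophages with and without short IL-4 stimulation. The 10 members were Nfe2l2, Keap1, Sqstm1, Hmox1, Nqo1, Gclc, Gclm, Slc7a11, Txnrd1 and Srxn1. Overlapping peaks of the 4 libraries (1 bp or more) were joined into regions, a region took the gene name of its highest peak, and a region belonged to a member when that name was one of the 10. This gave 77 regions out of 60710 in all. The gene name is that of the nearest transcription start site (TSS) in the deposited annotation, so it says where a region lies and not which gene it acts on. Upstream and downstream are given along the strand of the gene.

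The study profiled bone marrow-derived macrophages (BMDMs) by ATAC-seq, in which the Tn5 transposase cuts open DNA, to learn how IL-4 and its transcription factor STAT6 alter chromatin. Both groups came from wild-type mice on the C57BL/6 background, 8 to 12 weeks old, whose marrow cells grew for 6 days in L929 supernatant (named MCSF in the labels), which supplies the growth factor macrophages need. The control cells received nothing further, and the IL-4 cells received IL-4 at 20 ng/ml for 1 h. Each group had 2 libraries, described as biological replicates, numbered 1 and 2, and no source used here says which animal gave which library. The libraries held 39462 to 45250 peaks, and no reads or coverage came with them, so the sequencing depth is unknown. Peak height is given as −log10 of the q-value of the peak, a measure of evidence that grows with depth as well as with accessibility. The median height was 8.04 for control replicate 1, 7.46 for control replicate 2, 7.69 for IL-4 replicate 1 and 6.41 for IL-4 replicate 2, so that IL-4 replicate 2 was the lowest in both number and height. Of 8 macrophage marker genes, 5 had a peak within 1 kb of the start site (Cd68, Itgam, Cd14 and Fcgr1 in all 4 libraries, Mertk in 3), whereas Csf1r, Adgre1 and Spi1 had none there. Of the 3 markers for each of 4 other cell types, T and B cell markers had 0 there, and neutrophil (S100a8, in all 4 libraries) and fibroblast (Pdgfra, in 1 library) markers had 1 each. At any distance, 6 of the 8 macrophage markers had a region, and 5 had one with a peak in all 4 libraries. For the other types, the markers with a region at any distance numbered 1 (T cell), 1 (B cell), 2 (neutrophil) and 1 (fibroblast).

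NRF2, the product of Nfe2l2, is a transcription factor that is held in the cytoplasm and marked for destruction by KEAP1. Oxidants and electrophiles modify KEAP1, NRF2 escapes, enters the nucleus with a small MAF partner and binds antioxidant response elements (AREs) near genes for haem breakdown, quinone reduction, glutathione synthesis and thioredoxin recycling. The autophagy receptor p62, the product of Sqstm1, competes with NRF2 for KEAP1. In macrophages this programme is known to protect cells from their own oxidants and from haem taken up with red cells.

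The sequence behind this programme is the ARE, searched here as the core TGACNNNGC on both strands in a window of 300 bases centred on the middle of the highest peak of each region. On the opposite strand the form found most often in these regions reads GCTGAGTCA, called the long ARE below, which contains the AP-1 motif TGAGTCA. The sequences that follow were read from the RefSeq assembly GRCm38.p6, the build of the mm10 coordinates, on the plus strand, and their capitals mark the core. They are shown because they are the 5 member regions with the long ARE and the 1 member region with an unadjusted p under 0.05 for the height comparison. The Hmox1 regions lay 9606 bp and 3888 bp upstream of the TSS, at chr8:75083854-75084096 and chr8:75089631-75089829. Of the Gclc region 3795 bp upstream, the Gclm region 36452 bp upstream and the Slc7a11 region 5302 bp downstream in intron 2 of 11, the bases around the match are given, at chr9:77750655-77750843, chr3:122208950-122209138 and chr3:50438143-50438331. The Sqstm1 region 1386 bp upstream is at chr11:50212046-50212269.
Hmox1 9606 bp upstream: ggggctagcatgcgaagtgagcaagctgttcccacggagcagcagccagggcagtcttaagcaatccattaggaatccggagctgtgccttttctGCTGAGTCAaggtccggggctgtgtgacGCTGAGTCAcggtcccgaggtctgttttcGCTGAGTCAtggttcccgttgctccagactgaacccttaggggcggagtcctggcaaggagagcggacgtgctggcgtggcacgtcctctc
Hmox1 3888 bp upstream: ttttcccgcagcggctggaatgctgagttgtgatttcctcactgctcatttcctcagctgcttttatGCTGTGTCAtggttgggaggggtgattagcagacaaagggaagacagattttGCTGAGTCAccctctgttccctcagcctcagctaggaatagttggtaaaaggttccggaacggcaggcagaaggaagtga
Gclc 3795 bp upstream: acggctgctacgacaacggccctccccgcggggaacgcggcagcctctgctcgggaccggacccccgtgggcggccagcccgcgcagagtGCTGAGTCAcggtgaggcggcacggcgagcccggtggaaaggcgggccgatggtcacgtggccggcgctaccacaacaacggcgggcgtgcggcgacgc
Gclm 36452 bp upstream: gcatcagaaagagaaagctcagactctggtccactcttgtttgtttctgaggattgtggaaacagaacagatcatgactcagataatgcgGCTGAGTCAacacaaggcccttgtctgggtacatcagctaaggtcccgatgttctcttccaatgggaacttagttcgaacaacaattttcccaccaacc
Sqstm1 1386 bp upstream: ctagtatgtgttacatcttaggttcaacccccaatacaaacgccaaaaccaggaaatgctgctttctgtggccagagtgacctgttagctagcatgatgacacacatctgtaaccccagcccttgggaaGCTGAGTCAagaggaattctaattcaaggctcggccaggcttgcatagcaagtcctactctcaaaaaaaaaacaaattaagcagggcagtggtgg
Slc7a11 5302 bp downstream: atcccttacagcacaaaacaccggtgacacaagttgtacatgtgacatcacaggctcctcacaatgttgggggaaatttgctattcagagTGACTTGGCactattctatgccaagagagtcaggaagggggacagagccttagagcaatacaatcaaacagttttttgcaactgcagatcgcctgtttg

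The Hmox1 region 9606 bp upstream held 3 copies of the long ARE, and only 11 of all 60710 windows (0.0181%) held 3 or more. The copies sat 59, 31 and 2 bases from the middle of the highest peak. The region 3888 bp upstream held 1 long ARE 24 bases to one side of the middle and 1 further core 28 bases to the other. Distal enhancers with repeated AREs are textbook features of the mouse Hmox1 gene.

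Promoters were also searched with a wider motif, which 43.9% of all regions within 1 kb of a start held. A match to it alone therefore does not show an ARE, and whether any wide match acts as one was not tested. The wider motif TGANNNNGC, which leaves the fourth base free, is in capitals in the following 250 bases before the RefSeq start of Srxn1 (plus strand, chr2:152105274-152105523) and before the Txnrd1 start that had a shared region (plus strand, chr10:82858956-82859205). The Txnrd1 match is also a core match, at 88 bp upstream of the start.
Srxn1 promoter: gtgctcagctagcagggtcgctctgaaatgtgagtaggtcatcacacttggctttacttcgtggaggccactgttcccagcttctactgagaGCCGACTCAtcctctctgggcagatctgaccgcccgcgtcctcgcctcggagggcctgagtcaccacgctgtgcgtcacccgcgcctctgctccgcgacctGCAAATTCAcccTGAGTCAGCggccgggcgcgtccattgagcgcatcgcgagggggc
Txnrd1 promoter: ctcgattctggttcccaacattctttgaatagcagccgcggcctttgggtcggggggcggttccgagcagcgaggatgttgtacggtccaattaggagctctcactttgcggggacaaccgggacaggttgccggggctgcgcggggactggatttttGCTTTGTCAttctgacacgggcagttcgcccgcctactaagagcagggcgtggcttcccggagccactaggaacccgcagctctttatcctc

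The Srxn1 promoter held 3 wide matches in these bases, 1 of which overlaps an AP-1 motif 41 bp upstream of the start. Nqo1 had no core match in the window of either region. The only wide match in these windows lay 432 bp upstream, at chr8:107403633-107403641 on the minus strand. That match fell in the window of a region with a peak in 1 library. Gclm and Keap1 had core matches inside exons, at chr3:122245652-122245660 and chr9:21238840-21238848, of which only the match and 10 bases to either side are shown. Each short sequence reads along the strand of its match.
Nqo1 432 bp upstream: agagtcacagTGAGTCGGCaaaatttgag
Gclm 99 bp downstream: tggaagacaaTGACTAAGCagaaacctca
Keap1 488 bp downstream: cgggtcacggTGACTAAGCacagcgcgcc

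In all, 22 core matches fell in 18 of the 77 member regions (23.4%), against 16.1% of all regions. Of the 10 genes, 9 had at least 1, but genes with more regions had more windows, and no share over all genes was computed. Of the 22 matches, 7 overlapped an AP-1 motif and 10 lay within 50 bases of the middle of the highest peak. Among shared regions, those with a peak in every library, 11 of 35 member regions (31.4%) held the core, against 17.5% of all such regions. The long ARE was in 5 member regions (6.49%) against 2.16% of all. The wider motif was in 45 member regions (58.4%) against 46.4%. AP-1 was in 18 member regions (23.4%) against 19%, the PU.1 motif GAGGAAG in 20 (26%) against 25.4%, and the STAT6 motif with 4-base spacing in 9 (11.7%) against 9.05%. Among the 35 shared member regions, AP-1 was in 10 (28.6%) against 20.9% of all shared regions. The PU.1 motif was in 11 of them (31.4%) against 26.8%, and the STAT6 motif in 6 (17.1%) against 7.78%. These shares are descriptions, since regions of 1 gene share a locus and the peaks of 1 set of libraries placed every window. In the RefSeq promoter table (300 bases, with 250 before the start), 8 of the member genes were found with 10 starts, and 4 of those 10 promoters held the core, against 12.4% of 32851 promoters. Those 4 were promoters of Gclm, Nfe2l2, Srxn1 and Txnrd1.

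**Figure D1:**
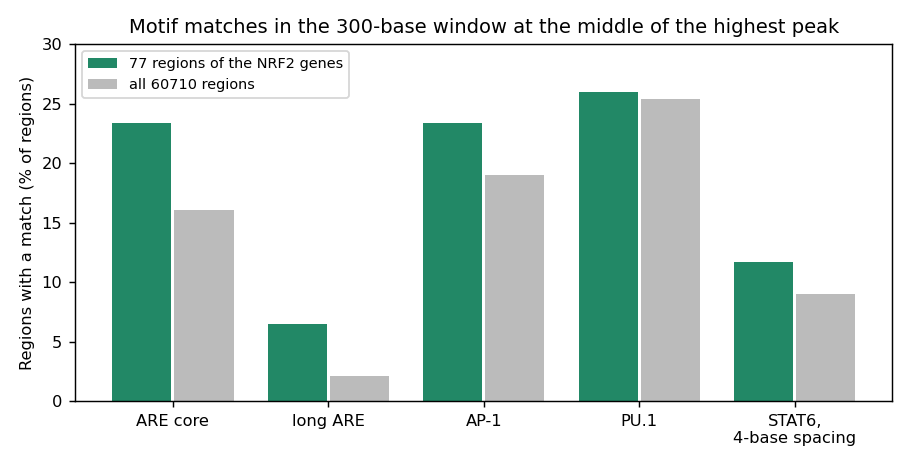
Share of regions (y axis, percent) with at least 1 match to each motif (x axis) in the 300-base window, for the 77 member regions (green) and all 60710 regions (grey). The member bar is 23.4% against 16.1% for the ARE core and 6.49% against 2.16% for the long ARE, while the bars for PU.1 (26% and 25.4%) are close.

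The members differed widely in how many regions carried their name. Slc7a11 had 22 regions, Nfe2l2 13 and Gclc 11, and Keap1 had 7, Gclm 6, Hmox1 5, Txnrd1 4, Sqstm1 4, Srxn1 3 and Nqo1 2. Of the 77 regions, 36 were annotated as intergenic, 25 as intron, 11 as promoter and 5 as exon, 5′ UTR or transcription end. Within 1 kb of the TSS lay 17 regions (22.1%, against 24.8% of all regions). Beyond 50 kb lay 24, of which 16 carried the name of Slc7a11, the farthest 293815 bp upstream. In 14 member regions (18.2%) the highest peak was annotated to a LINE, SINE or LTR repeat, against 13.6% of all regions. Peaks were found in 59 and 52 of the member regions in control and in 58 and 50 after IL-4.

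Of the 77 regions, 35 (45.5%) had a peak in all 4 libraries, against 41.9% of all regions (25442 of 60710). A further 16 had a peak in 3 libraries, 5 in 2 and 21 in 1. The regions seen in 1 library were low, with a median height of 4.0 and a highest value of 8.78, whereas the 35 shared regions had a median mean height of 10.78, close to the 10.8 of all shared regions. Among the 16 regions with a peak in 3 libraries, IL-4 replicate 2 lacked the peak in 7, control replicate 2 in 4, control replicate 1 in 3 and IL-4 replicate 1 in 2.

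**Figure D2:**
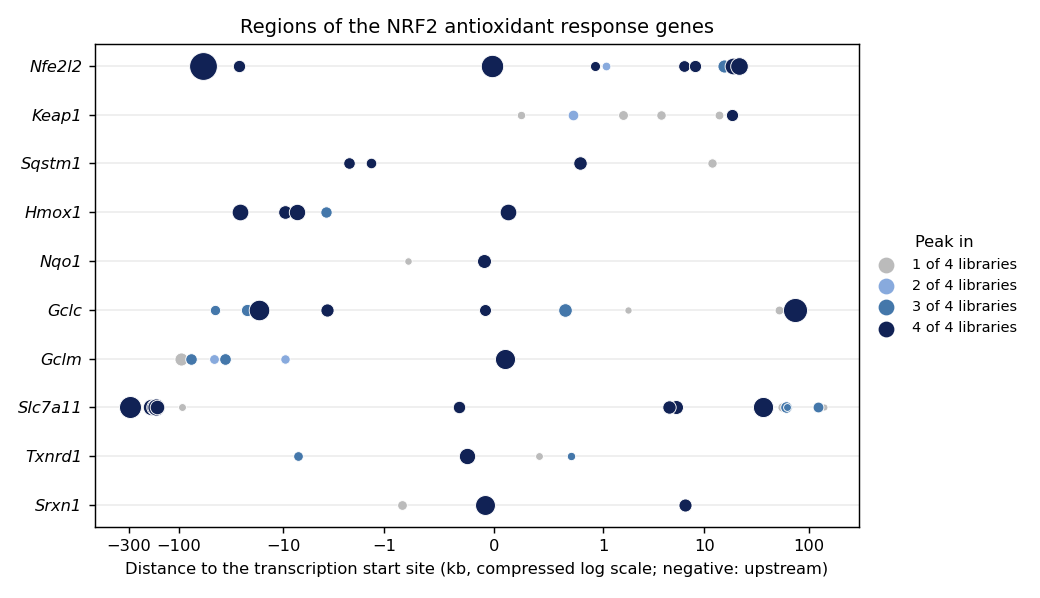
Each point is 1 of the 77 regions, placed by its distance to the TSS of its gene (x axis, kb, compressed log scale) and sized by its mean peak height, with darker points for peaks in more libraries. Every gene except Keap1 has a region with a peak in all 4 libraries within 1 kb of the TSS, and the Slc7a11 regions extend to 293815 bp upstream.

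The comparison of the groups asked whether 1 h of IL-4 altered the height of these regions. No member region passed an adjusted p of 0.05 in limma, the lowest adjusted p being 0.5442. Over the 35 shared member regions, 17 were higher and 18 lower after IL-4, with a median log2 change of −0.068 (0.038 under median centring) beside −0.0006 for all 25442 shared regions. The log2 changes ranged from −1.08 to 0.60 with an SD of 0.41 over member regions, beside 0.50 over all shared regions, and their standard errors ran from 0.18 to 0.55. Over all shared regions, 4 (0.0157%) were higher and 2 (0.00786%) lower at an adjusted p under 0.05. At an unadjusted p under 0.05 limma gave 0 of 35 member regions higher and 1 lower, beside 4.12% of all shared regions higher and 4.15% lower. With 2 libraries a group, a log2 change of the size of the median standard error over member regions (0.445) was not detectable, and the absence of calls does not show that heights were equal. In a mixed cell population, fewer cells with an open region and less accessibility per cell cannot be told apart.

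The mean normalised log2 height over the 35 regions was 3.50 and 3.595 in control and 3.486 and 3.477 after IL-4. Both IL-4 libraries lay below both control libraries, by a difference in means of −0.066 (exact permutation test, two-sided p = 0.3333, n = 2 libraries against 2, the smallest p this design allows). Before normalisation the median log2 change was −0.203 over member regions and −0.211 over all shared regions.

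Both IL-4 heights lay above both control heights after normalisation in 3 of the 35 regions (8.57%), against 19.2% of all shared regions. Both lay below in 7 regions (20%), against 18.6%. The groups overlapped in the other 25 regions. In the heights as deposited, 1 region had both IL-4 libraries above and 11 had both below, beside 8.83% and 29.3% of all shared regions.

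**Figure D3:**
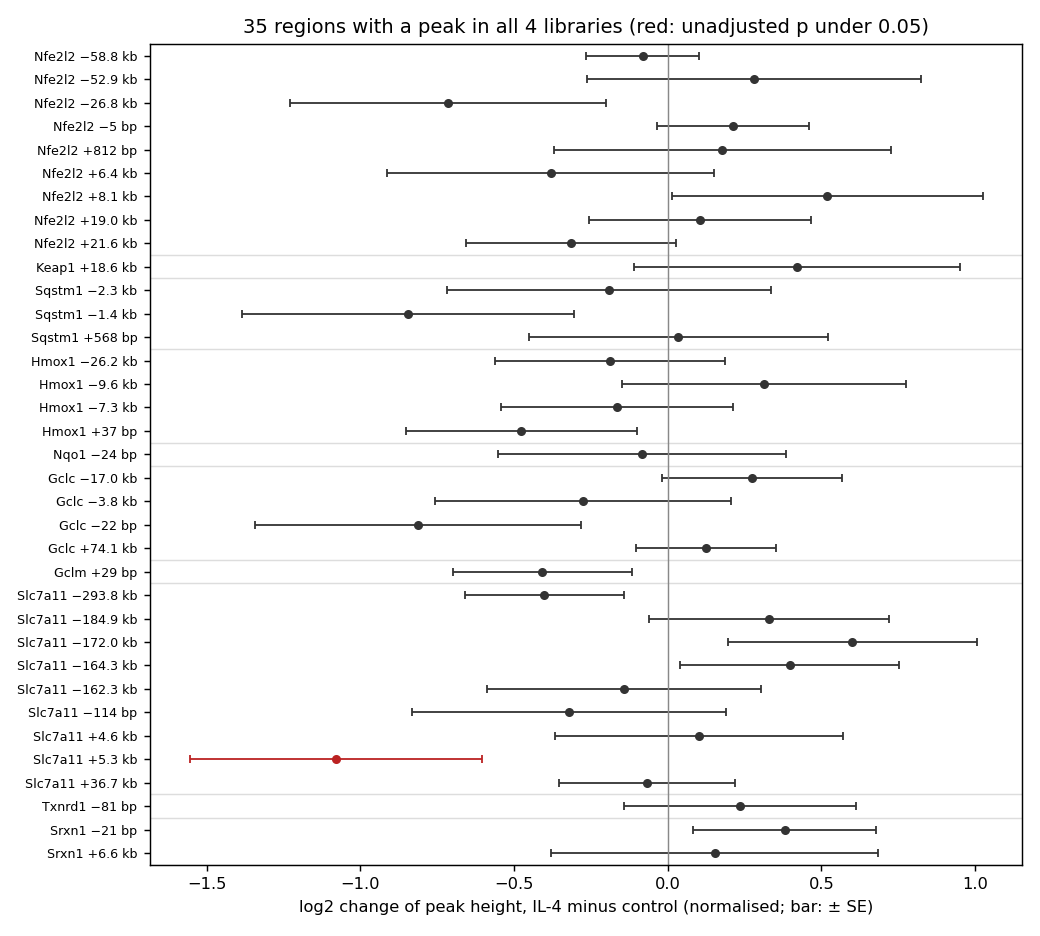
Fitted log2 change of normalised peak height, IL-4 minus control (x axis), for the 35 member regions with a peak in all 4 libraries (y axis, gene and distance to the TSS), with bars of 1 standard error from limma. The changes lie between −1.08 and 0.60 on both sides of 0, and the Slc7a11 region in intron 2 (red) is the 1 region with an unadjusted p under 0.05.

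Nfe2l2, which encodes NRF2 itself, had the highest peaks of the set. Its intergenic region 58808 bp upstream (chr2:75763281-75763655) reached heights of 46.8 and 35.96 in control and 38.4 and 36.3 after IL-4, in the order of the replicate numbers used from here on, above 99.4% of all shared regions. The groups overlapped there, with a log2 change of −0.082 (SE 0.18, limma unadjusted p = 0.659). The Nfe2l2 promoter (chr2:75704355-75704951) had heights of 24.0 and 26.0 in control and 27.9 and 24.2 after IL-4, above 90.2% of shared regions within 1 kb of a start. Its heights as deposited overlapped, its normalised heights were higher in both IL-4 libraries, and the log2 change was 0.21 (SE 0.25, limma unadjusted p = 0.394), or 0.076 without control replicate 1 and 0.35 without control replicate 2.

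The first intron of Nfe2l2 held 8 of its 13 regions. The RefSeq promoter of Nfe2l2 held 1 core match, which fell outside the window of the promoter region. The only Nfe2l2 window with a core match was that of the intron region 6373 bp downstream of the TSS. That region had heights of 11.7 and 5.50 in control and 6.88 and 3.87 after IL-4. These heights overlapped. The region 8079 bp downstream had heights of 7.10 and 6.57 in control and 7.52 and 9.20 after IL-4, with both IL-4 libraries above control and a log2 change of 0.52 (SE 0.51, limma unadjusted p = 0.3099), which was 0.22 without IL-4 replicate 2 and 0.83 without IL-4 replicate 1. At 26841 bp upstream the direction was opposite, with heights of 9.17 and 11.1 in control and 6.58 and 4.13 after IL-4 and a log2 change of −0.72 (SE 0.51, limma unadjusted p = 0.169).

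A small Nfe2l2 region 1074 bp downstream, in the same intron, had a peak in both IL-4 libraries (4.08 and 3.70) and in neither control library. It lay 103 bases from the region 812 bp downstream, which had low peaks in all 4 libraries (4.27 and 6.35 in control, 5.54 and 4.49 after IL-4). Over its 9 shared regions, Nfe2l2 had 5 higher and 4 lower, and a mean log2 change of −0.022, or 0.015 under median centring (exact permutation test over libraries, two-sided p = 1).

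Within 1 kb of the start, the maximum height over libraries was lowest for Keap1, the gene of the NRF2 inhibitor (5.89). None of its regions within 1 kb of the TSS had a peak in all libraries, and 4 of its 7 regions had a peak in 1 library. The region 472 bp downstream, in the 5′ UTR of exon 1 (chr9:21238715-21238968, with the core match printed above), had peaks in both control libraries (5.89 and 5.74) and in neither IL-4 library. It lay 208 bases from a region 80 bp downstream with a peak of 3.61 in IL-4 replicate 1 alone.

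The only Keap1 region with a peak in all libraries lay 18615 bp downstream of the start, outside the gene, and also held a core match. Its heights were 11.04 and 3.86 in control and 6.53 and 8.95 after IL-4, and the control libraries spanned both IL-4 values (log2 change 0.42, SE 0.53, limma unadjusted p = 0.4318). The neighbouring region 18350 bp downstream, 53 bases away, had peaks in both control libraries (3.92 and 3.79) and no IL-4 library.

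Over all members, then, 2 regions (2.6%) had a peak in both IL-4 libraries only and 2 (2.6%) in both control libraries only, beside 2.53% and 4.33% of all regions. The 4 regions were all low, between 3.70 and 5.89 in the libraries that had them.

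Sqstm1, which encodes p62, had 4 regions. The one 1386 bp upstream, with the long ARE, had heights of 8.01 and 7.49 in control and 4.41 and 2.90 after IL-4. Both IL-4 libraries were below both control libraries, and the log2 change was −0.85 (SE 0.54, limma unadjusted p = 0.1238). The highest peak of this region was annotated to a SINE repeat. The region in intron 1, 568 bp downstream, had heights of 7.06 and 13.0 in control and 6.78 and 10.2 after IL-4. The replicates there differed more than the groups, with a log2 change of 0.034 (SE 0.49). A further region 2306 bp upstream had heights of 9.91 and 5.82 in control and 7.01 and 4.58 after IL-4, which also overlapped. The gene mean over 3 shared regions was −0.33 (exact permutation test, two-sided p = 0.3333).

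Hmox1 encodes haem oxygenase 1, which breaks haem into biliverdin, iron and carbon monoxide. All but 1 of its 5 regions had a peak in every library. The promoter (chr8:75093501-75093894) had heights of 18.1 and 16.3 in control and 15.1 and 7.34 after IL-4. Both IL-4 libraries were lower, IL-4 replicate 2 by most, and the log2 change was −0.48 (SE 0.38, limma unadjusted p = 0.2099). Its size rested on that library, since the log2 change was −0.13 without IL-4 replicate 2 and −0.82 without IL-4 replicate 1. The region with 3 long AREs, 9606 bp upstream, had heights of 11.5 and 7.15 in control and 11.5 and 7.86 after IL-4. Here the replicates differed and the groups overlapped (log2 change 0.31, SE 0.46, limma unadjusted p = 0.5013).

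At 3888 bp upstream the other long ARE region had heights of 3.88 and 7.52 in control and 8.38 in IL-4 replicate 1, with no peak in IL-4 replicate 2. Since IL-4 replicate 2 had the fewest peaks, a missing peak there and a loss of accessibility cannot be told apart. The region 7345 bp upstream, with 1 core match, had heights of 17.9 and 13.1 in control and 10.3 and 13.5 after IL-4, which overlapped. The region 26155 bp upstream lay in intron 12 of 14 of the neighbouring gene Tom1 and had no core match. Its heights were 12.9 and 19.7 in control and 14.9 and 9.59 after IL-4, and they overlapped. The gene mean over 4 shared regions was −0.13 (exact permutation test, two-sided p = 0.3333), with 1 region higher and 3 lower.

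**Figure D4:**
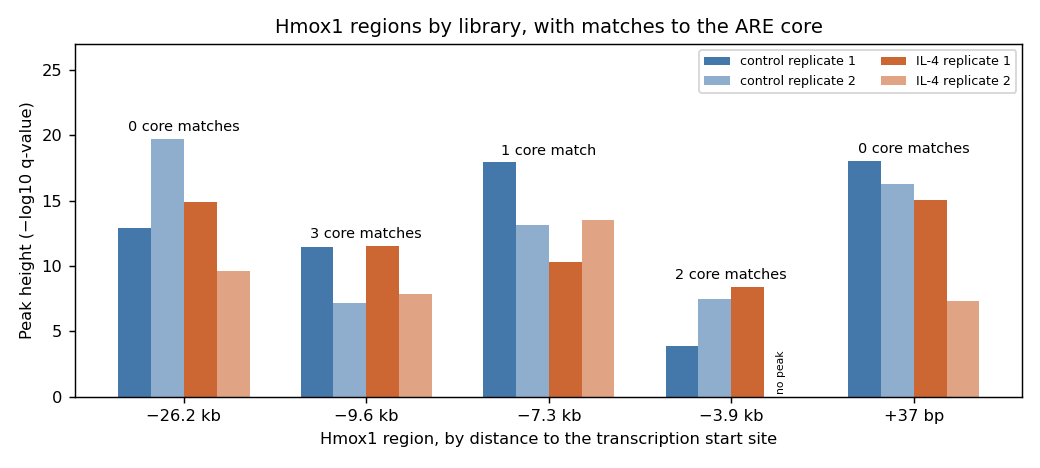
Peak height (y axis, −log10 q-value) of the 5 Hmox1 regions (x axis, distance to the TSS) in each control (blue) and IL-4 (orange) library, with the number of ARE core matches above each. The region 9606 bp upstream with 3 matches has 7.15 to 11.5 in all libraries, and the region 3888 bp upstream has no peak in IL-4 replicate 2.

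Nqo1 encodes a quinone reductase, a standard NRF2 target. Its promoter (chr8:107403062-107403387) had heights of 11.3 and 10.2 in control and 6.29 and 12.0 after IL-4. The IL-4 libraries lay on either side of control, with a log2 change of −0.083 (SE 0.47, limma unadjusted p = 0.8609). The region 550 bp upstream, whose window held the wide match printed above, had a peak of 2.86 in IL-4 replicate 1 alone.

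Glutathione synthesis was represented by the catalytic subunit (Gclc) and the modifier subunit (Gclm) of glutamate-cysteine ligase and by the cystine importer Slc7a11. The Gclm promoter (chr3:122245276-122245865) had heights of 23.3 and 26.1 in control and 15.4 and 17.3 after IL-4. Both IL-4 libraries were lower, by a log2 change of −0.41 (SE 0.29, limma unadjusted p = 0.1665, adjusted p = 0.7637). This change ran from −0.17 without IL-4 replicate 1 to −0.63 without IL-4 replicate 2, and it was −0.24 without control replicate 2. It was the only Gclm region with a peak in all libraries.

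The other Gclm regions were low and patchy. The long ARE region 36452 bp upstream had a height of 7.56 in control replicate 1, no peak in control replicate 2, and 5.89 and 7.31 after IL-4. Core matches also lay in the windows of the regions 75779 bp upstream (12.6 in control replicate 1, none in control replicate 2, 4.11 and 3.73 after IL-4) and 46320 bp upstream (5.65 in control replicate 1 and 4.11 in IL-4 replicate 1 only). The region 75779 bp upstream lay in an intron of Abca4, as did the one 94514 bp upstream, which had a peak of 8.78 in control replicate 2 alone. The region 9585 bp upstream, annotated to an LTR repeat, had a peak in both IL-4 libraries (4.07 and 5.05) and in no control library.

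Gclc had its highest peaks far from its start. The region 74149 bp downstream of the TSS, past the end of the gene and annotated to a LINE repeat, had heights of 26.6 and 32.6 in control and 29.3 and 29.5 after IL-4. The IL-4 values fell between the control values (log2 change 0.12, SE 0.23, limma unadjusted p = 0.5911). The Gclc promoter (chr9:77754435-77754654) was low, with heights of 9.82 and 9.33 in control and 7.16 and 2.87 after IL-4. Both IL-4 libraries were below control, with a log2 change of −0.81 (SE 0.53, limma unadjusted p = 0.1308, adjusted p = 0.7243), and this promoter ranked above only 16.5% of shared promoters. Without IL-4 replicate 2 the log2 change was −0.32 (limma unadjusted p = 0.566), and without IL-4 replicate 1 it was −1.28 (limma unadjusted p = 0.04669).

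In exon 1 of Gclc, 381 bp downstream, heights were 8.97 and 13.2 in control and 6.21 in IL-4 replicate 1, with no peak in IL-4 replicate 2. The long ARE region 3795 bp upstream had heights of 11.9 and 8.97 in control and 6.21 and 8.52 after IL-4. Both IL-4 heights were lower as deposited, but the normalised heights overlapped and the log2 change was −0.28 (SE 0.48, limma unadjusted p = 0.5703). Over 4 shared Gclc regions the mean was −0.17 (exact permutation test, two-sided p = 0.6667), with 2 higher and 2 lower.

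Slc7a11 held the 1 member region with an unadjusted p under 0.05. In intron 2 of 11, 5302 bp downstream of the TSS, heights were 16.5 and 11.7 in control and 7.66 and 4.07 after IL-4. Both IL-4 libraries were lower, by a log2 change of −1.08 (SE 0.48, limma unadjusted p = 0.02717). The adjusted p over all shared regions was 0.5442, so the difference did not pass the test across regions. Without control replicate 1, control replicate 2 or IL-4 replicate 2 the unadjusted p was 0.1667, 0.0526 and 0.126 in turn.

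The region 4604 bp downstream, in intron 1 and also with a core match, had heights of 9.15 and 10.1 in control and 8.66 and 8.62 after IL-4. Both IL-4 heights were slightly lower as deposited, but the normalised heights overlapped and the log2 change was 0.10 (SE 0.47). The Slc7a11 promoter (chr3:50443497-50443876) had heights of 9.57 and 8.69 in control and 9.20 and 4.07 after IL-4, which overlapped (log2 change −0.32, SE 0.51, limma unadjusted p = 0.5342). Core matches also fell in a region of intron 6, 41029 bp downstream (2.96 in control replicate 2 alone), and in 1 region 251112 bp upstream (5.05 in IL-4 replicate 2 alone).

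The highest Slc7a11 region lay 293815 bp upstream, annotated to a LINE repeat, with heights of 26.0 and 32.7 in control and 19.8 and 19.8 after IL-4. Both IL-4 libraries were lower (log2 change −0.40, SE 0.26, limma unadjusted p = 0.1261). The log2 change depended on the control libraries, at −0.15 without control replicate 2 (limma unadjusted p = 0.6477) and −0.67 without control replicate 1 (limma unadjusted p = 0.03319), and it was −0.26 without IL-4 replicate 1. The region 171992 bp upstream was in the opposite direction, with heights of 14.4 and 7.54 in control and 14.8 and 12.6 after IL-4. Its heights as deposited overlapped, its normalised heights did not, and its log2 change of 0.60 (SE 0.41, limma unadjusted p = 0.1441) was the highest of the set, falling to 0.24 without control replicate 2 and reaching 0.97 without control replicate 1. Regions this far from Slc7a11 carry its name because no other annotated start is nearer. The mean over 9 shared regions was −0.064 (exact permutation test, two-sided p = 0.6667), with 4 higher and 5 lower.

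Txnrd1 encodes cytosolic thioredoxin reductase, and Srxn1 encodes sulfiredoxin, which restores oxidised peroxiredoxins. The Txnrd1 promoter with the core match (chr10:82858917-82859321) had heights of 17.0 and 10.5 in control and 13.2 and 13.9 after IL-4. The control values spanned the IL-4 values, with a log2 change of 0.24 (SE 0.38, limma unadjusted p = 0.5362). The highest farther Txnrd1 region, 7241 bp upstream of that start, had heights of 5.65 and 4.95 in control and 3.73 in IL-4 replicate 2, with no peak in IL-4 replicate 1. A further 2 regions on the body of Txnrd1 carried the name of Eid3, whose start was nearer, and were not counted as members.

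The Srxn1 promoter (chr2:152105262-152106022) had heights of 23.3 and 14.6 in control and 19.4 and 23.4 after IL-4, above 78.9% of shared promoters. The groups overlapped, with a log2 change of 0.38 (SE 0.30, limma unadjusted p = 0.2082). Its core match lay 32 bp downstream of the start. The region at the transcription end, 6588 bp downstream, had heights of 5.46 and 11.7 in control and 13.9 and 3.92 after IL-4, and both groups covered nearly the same range.

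**Figure D5:**
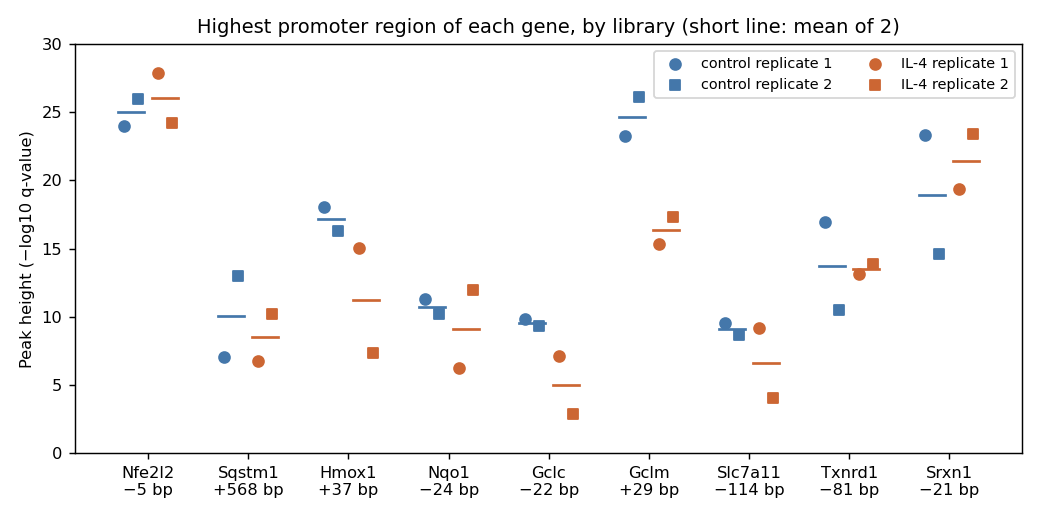
Peak height (y axis, −log10 q-value) in each library at the highest region within 1 kb of the TSS that had a peak in all libraries, for the 9 genes with one (x axis). Control libraries are blue and IL-4 libraries orange, circles are replicate 1, squares replicate 2, and short lines are group means. The Hmox1, Gclc and Gclm points after IL-4 lie below both control points, while those of Nfe2l2, Sqstm1, Nqo1, Slc7a11, Txnrd1 and Srxn1 overlap. Heights are as deposited, without normalisation. In such heights, both IL-4 libraries lay below both control libraries in 29.3% of all shared regions.

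Regions with the element were split in direction. Of the 11 shared member regions with the core, 5 were higher and 6 lower after IL-4, with a median log2 change of −0.165, beside −0.036 over the 4444 shared regions of the whole series that held it. Of the 10 shared member regions within 1 kb of a start, 5 were higher and 5 lower (median −0.024, beside 0.041 over all such regions), and of the 25 farther away 12 were higher and 13 lower (median −0.068, beside −0.032).

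The wider pathway was read from a list of 39 further genes, of which 38 had a region (Cbr1 had none), with 200 regions in all and 90 shared. None of the 90 passed an adjusted p of 0.05. At an unadjusted p under 0.05, 3 (3.33%) were higher and 7 (7.78%) lower, beside 4.12% and 4.15% of all shared regions, and the median log2 change was 0.012. Peaks in both libraries of one group and neither of the other were found in 1 of the 200 regions after IL-4 (0.5%) and in 13 in control (6.5%), beside 2.53% and 4.33% of all regions. The glutathione genes had 0 of 14 shared regions at an unadjusted p under 0.05 in either direction.

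The 3 higher regions belonged to Bach1, Fth1 and Prdx6. Bach1 encodes the repressor that competes with NRF2 for AREs. Its region 62861 bp upstream had heights of 9.09 and 5.33 in control and 20.1 and 14.5 after IL-4 (log2 change 1.51, SE 0.43, limma unadjusted p = 0.0008162, adjusted p = 0.2355), with no overlap. By contrast, the Bach1 regions 60657 bp upstream (5.79 and 3.24) and 17565 bp downstream (4.61 and 5.27) had peaks in the control libraries only. Fth1 encodes the ferritin heavy chain, which stores iron. Its region 2056 bp upstream, with 2 core matches, had heights of 4.55 and 2.66 in control and 8.23 and 13.2 after IL-4 (log2 change 1.76, SE 0.54, limma unadjusted p = 0.001918, adjusted p = 0.2805), while its region 25979 bp upstream was among the 7 lower ones (log2 change −0.93, SE 0.40). The Fth1 regions 34609 and 26324 bp upstream and 3477 bp downstream had peaks in both control libraries and in no IL-4 library. The promoter of Prdx6, a peroxiredoxin, had heights of 22.9 and 19.0 in control and 32.3 and 26.3 after IL-4 (log2 change 0.63, SE 0.25, limma unadjusted p = 0.01462, adjusted p = 0.4677).

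Of the other 6 lower regions, the promoter of Ugdh, a dehydrogenase that supplies glucuronic acid, held 2 core matches and had heights of 35.4 and 17.3 in control and 10.4 and 9.81 after IL-4 (log2 change −1.11, SE 0.34, limma unadjusted p = 0.00207, adjusted p = 0.2832). The region 7564 bp upstream of Nfe2l1, a relative of NRF2, had heights of 21.8 and 17.0 in control and 10.7 and 3.73 after IL-4 (log2 change −1.38, SE 0.43, limma unadjusted p = 0.002251, adjusted p = 0.2922). The remaining 4 were regions of Bach2, Taldo1, Slc40a1 and Abcc1, with log2 changes between −1.04 and −1.27.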

How the data were processed

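ATAC-seq peak lists of 4 mouse BMDM libraries were analysed. Per the labels and the study's methods, the authors aligned reads to mm10 with BWA 0.7.10 and SAMtools 0.1.19, called peaks with MACS2 2.0.10 in each library on its own and annotated them with HOMER 4.2, and shifting of Tn5 cut sites and treatment of duplicates are not given in the sources used here. The deposited peak scores were read as −log10 of the MACS2 q-value, from their lowest value of 1.3 (−log10 of 0.05), since no label states the unit. The methods name a stricter cut-off, yet 133 to 603 peaks a library scored under 2.

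Peaks of the autosomes (1 to 19) and of X and Y were merged at an overlap of 1 bp (bedtools 2.31.1 gave the same regions). The highest score per library was log2-transformed and quantile-normalised over regions found in every library, and limma 3.58.1 (R 4.3.3, eBayes with a trend) was fitted to all of them with Benjamini-Hochberg adjustment. DiffBind, named in the study's methods, needs reads and was not used. Gene means and library means were compared by exact permutation over libraries (scipy 1.17.1), for which the smallest p is 0.3333. P-values measure the spread between these libraries only. The fit, merging, motif search and permutation test were tested on simulated data.

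Deposited distances were within 5 bp of RefSeq GRCm38.p6 for 58 of the 77 member regions, the others having a different start for the same gene. The members and gene lists were chosen with earlier results of these data known. Regions were named by rule: for each member the highest region within 1 kb and the highest farther away, those with a peak in 1 group only, those at an unadjusted p under 0.05 and those with the ARE core. Regions whose normalised heights did not overlap between groups were added after their values were seen. The result for 1 further marker list is not reported here.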

Additional observations from a re-analysis of the deposited data

How the results depend on the processing

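No member region passed an adjusted p of 0.05 under any alternative run. Over all regions, the count of higher and lower calls moved from 4 and 2 to 0 and 0 without the mean-variance trend, to 0 and 0 with all regions that had a peak in any library, and to 0 and 0 with summed peak scores. Leaving out 1 library at a time gave 0 to 14 higher and 0 to 0 lower. With the replicate block, 11 regions were higher. The replicate differences of the control and IL-4 libraries correlated at 0.007 over shared regions, and nothing in the labels pairs the numbers, so the block was not used for the values reported.

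The count of member regions at an unadjusted p under 0.05 was 2 without the trend (the Slc7a11 region in intron 2 and the Sqstm1 region 1386 bp upstream) and 0 to 2 with 1 library left out, where the Gclc promoter (without IL-4 replicate 1) and the Slc7a11 region 293815 bp upstream (without control replicate 1) passed. With peaks merged within 500 bp, the Slc7a11 intron 2 region was joined to the one 4604 bp downstream. The joined region had a log2 change of −0.45 (limma unadjusted p = 0.2851). In the same run the Gclc promoter was joined to the exon 1 region 381 bp downstream, with a log2 change of −1.04 (limma unadjusted p = 0.04737). The median log2 change of member regions was 0.038 under median centring and −0.132 to 0.058 with 1 library left out. Its sign therefore depended on both choices, and the cause was not tested.

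Regions with a peak in 1 group only numbered 1 (IL-4) and 0 (control) when peaks were merged within 500 bp, which joined the Nfe2l2 and both Keap1 regions to neighbours. With 1 library left out they numbered 5 to 8 (IL-4) and 4 to 10 (control), with 1 library fewer that has to hold or lack a peak. The share over all regions was not computed for these settings, so the counts say nothing particular to the members. The ARE core count of 18 regions became 45 with TGANNNNGC and 5 with GCTGAGTCA. Searching the whole merged region in place of the window gave 21 of the 77 member regions with the core, beside 14.7% of all regions.

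Of 120 gene means under alternatives, 106 had the same direction and 14 the opposite. Nfe2l2 reversed to 0.015 under median centring, 0.123 with all regions that had a peak in any library and 0.023 with summed scores. In the fit with all regions that had a peak in any library, a missing peak took the lowest score of its library. There, Keap1 reversed to −0.088, Nqo1 to 0.187 and Gclm to 0.234, so these values rest partly on filled-in heights. With 1 library left out, over all regions with a peak in the remaining libraries, the mean ranged from −0.062 to 0.019 for Nfe2l2 (reversed without IL-4 replicate 2), −0.212 to 1.029 for Keap1 (without control replicate 2), −0.190 to 0.093 for Hmox1 (without IL-4 replicate 2), −0.703 to 0.547 for Nqo1 (without IL-4 replicate 1), −0.375 to 0.076 for Gclc and −0.165 to 0.033 for Slc7a11 (both without control replicate 2), and −0.047 to 0.175 for Txnrd1 (without either control replicate). A fit that leaves 1 library in a group assumes that it varies like the others.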
